A study of Mus musculus with 7 samples.

Results

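The transcripts described here are 10 genes of the neutrophil lineage: S100a8, S100a9, Csf3r, Cxcr2, Retnlg, Ly6g, Mmp8, Ngp, Camp and Ltf. They were taken by symbol from a count table of 25571 genes, and all 10 were found in it. The RNA came from CD11b-sorted tumour-associated macrophages of NSG mice that carried orthotopic T387 glioblastoma xenografts in the brain. The 4 Pracinostat libraries came from mice dosed orally with 30 mg/kg of this histone deacetylase inhibitor on 4 days of each of 3 weeks, starting 7 days after the tumour cells were implanted, and the 3 DMSO libraries from mice given the solvent on the same schedule. NSG mice lack T, B and NK cells but keep neutrophils, monocytes and macrophages, and the labels give no age, sex or link between libraries and animals. The labels call the libraries biological replicates, and p-values measure only the spread between them.

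Neutrophils are short-lived granulocytes made in the bone marrow under the cytokine G-CSF. As they mature they fill their granules in a fixed order. Primary granules come first, with enzymes such as myeloperoxidase, then specific granules with lactoferrin and cathelicidin, then gelatinase granules with the gelatinase encoded by Mmp9. They gain the chemokine receptor CXCR2 last. Their surface carries much CD11b, so a gate on CD11b alone does not remove them, and the labels name no gate on Ly6G or another neutrophil antigen. In tumours they are often counted as a separate myeloid population beside microglia and monocyte-derived macrophages.

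Outside Csf3r, the 9 other transcripts mostly varied widely between libraries of the same treatment group. Most of them had their highest levels in Pracinostat replicates 1, 2 and 4 and in DMSO replicate 1, and most were at or near 0 in Pracinostat replicate 3 and DMSO replicate 3, with DMSO replicate 2 low as well or in between. High and low libraries thus stood in both groups. In the edgeR test, no transcript that was tested was called between Pracinostat and DMSO. The same test called 0% of all 15822 genes tested. Csf3r did not follow this pattern and stayed within a 1.52-fold range over all 7 libraries.

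The bases before the transcription start are shown for Ngp, Ltf and Camp, which varied widely between libraries, and for Csf3r, which varied little. They are 250 bases upstream of the start, 5′ to 3′ on the gene's strand, from RefSeq on GRCm38.p6, whereas the counts were made on GRCm39. Capitals mark TTGCNNAA, a form of the site bound by C/EBP factors, or GAGGAAG, a core bound by PU.1, each on either strand. C/EBP epsilon is the factor known to drive specific-granule genes, and PU.1 is a general myeloid factor. No printed window holds both motifs, but that of Mmp8 and a window of Ly6g, not printed, do. S100a8, with a 31.1-fold range over libraries, had GAGGAAG alone. Cxcr2, with a 61.8-fold range, had neither.
Ngp, chr9:110419558-110419807, plus strand: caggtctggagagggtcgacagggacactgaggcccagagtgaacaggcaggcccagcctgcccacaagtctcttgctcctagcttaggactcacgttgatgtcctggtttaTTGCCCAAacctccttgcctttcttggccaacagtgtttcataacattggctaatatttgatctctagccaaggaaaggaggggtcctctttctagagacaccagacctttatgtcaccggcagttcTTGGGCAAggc
Ltf, chr9:111019042-111019291, plus strand: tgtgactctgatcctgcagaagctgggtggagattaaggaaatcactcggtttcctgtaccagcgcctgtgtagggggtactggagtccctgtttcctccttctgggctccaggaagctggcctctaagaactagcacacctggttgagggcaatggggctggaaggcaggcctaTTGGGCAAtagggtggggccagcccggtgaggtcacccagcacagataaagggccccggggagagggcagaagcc
Camp, chr9:109849457-109849706, minus strand: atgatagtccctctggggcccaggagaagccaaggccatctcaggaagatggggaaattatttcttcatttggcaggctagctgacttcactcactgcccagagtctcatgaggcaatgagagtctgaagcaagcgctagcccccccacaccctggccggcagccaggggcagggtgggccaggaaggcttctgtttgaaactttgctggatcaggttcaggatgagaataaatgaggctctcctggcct
Csf3r, chr4:126024409-126024658, plus strand: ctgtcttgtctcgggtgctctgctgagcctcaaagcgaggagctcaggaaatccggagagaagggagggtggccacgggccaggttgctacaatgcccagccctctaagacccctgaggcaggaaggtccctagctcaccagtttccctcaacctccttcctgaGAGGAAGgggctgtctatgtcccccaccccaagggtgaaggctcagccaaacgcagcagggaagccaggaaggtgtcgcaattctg

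Ngp held 2 matches to TTGCNNAA, the nearer one beginning 11 bases before the start. Ltf held 1, beginning 75 bases before the start, and Camp held none. Among the 10 genes, 6 had a match to TTGCNNAA, against 9.56% of 32851 upstream windows in the table, some genes having several windows. A match to GAGGAAG was found upstream of 4 of the 10, against 10.6% of windows, and the one before Csf3r began 86 bases from the start. These matches are a description of letters, and binding was not measured.

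Library depth ran from 10142753 to 16950597 counts, with 16319 to 19244 genes detected. Transcripts of the sorted antigen, which neutrophils also carry, and of a macrophage receptor were abundant in every library. Itgam, which encodes CD11b, stood at 1448 to 2579 CPM in Pracinostat libraries and 1318 to 1688 CPM in DMSO libraries (CPM, with TMM-scaled library sizes). Csf1r, the receptor that macrophages need to survive, stood at 1741 to 3004 CPM with Pracinostat and 1940 to 2287 CPM with DMSO.

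All 10 transcripts were detected in Pracinostat replicates 1 and 2, 9 in Pracinostat replicate 4 and 4 in Pracinostat replicate 3. In DMSO replicates 1, 2 and 3 the numbers detected were 9, 8 and 5. A count of 0 leaves room for up to 3 counts, which is 0.183 to 0.29 CPM at these depths, for counting error only. Pracinostat replicates 1 and 4 and DMSO replicate 1 were among the 4 highest libraries for all 9 genes other than Csf3r, and Pracinostat replicate 2 for 8 of 9, with libraries tied at 0 for Ly6g counted. DMSO replicate 2 was among the 4 highest for 2 of 9, Mmp8 and the tied Ly6g. Pracinostat replicate 3 and DMSO replicate 3 were so for 1 of 9, which was the tied Ly6g.

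**Figure D1:**
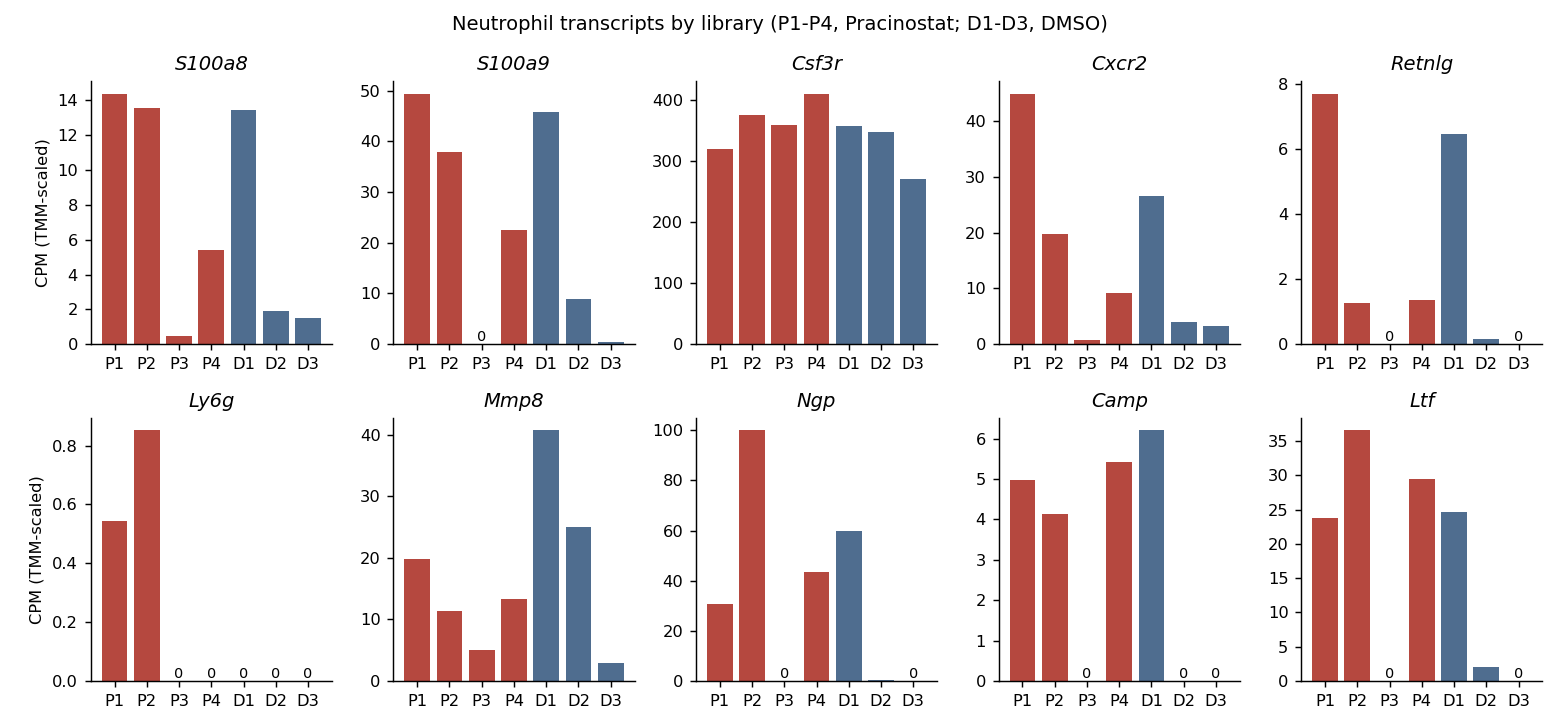
CPM (TMM-scaled) of each of the 10 transcripts in each library, with Pracinostat replicates 1 to 4 (P1 to P4, red) left of DMSO replicates 1 to 3 (D1 to D3, blue); each bar is 1 library and 0 marks a library without a count. Csf3r is level at 271 to 411 CPM, while Ngp runs from 0 to 100.03 CPM, with high and low libraries in both groups.

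Ngp, Camp and Ltf encode contents of the specific granules, made at the myelocyte stage. Ngp, the neutrophilic granule protein, stood at 30.7, 100.03, 0 and 43.6 CPM in Pracinostat replicates 1 to 4, against 59.7, 0.24 and 0 CPM in DMSO replicates 1 to 3. Libraries of both groups were therefore at or near 0, 1 with Pracinostat and 2 with DMSO, and the groups overlapped, although the highest value, in Pracinostat replicate 2, was above every DMSO library. Pracinostat replicate 2 was at least 504-fold higher than Pracinostat replicate 3, taking the limit of 3 counts in that library.

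Camp, the cathelicidin antimicrobial peptide, stood at 4.98, 4.14, 0 and 5.41 CPM in Pracinostat replicates 1 to 4, against 6.21, 0 and 0 CPM in DMSO replicates 1 to 3. Its 4 positive libraries lay close together, and the highest of them was DMSO replicate 1. Ltf, the iron-binding lactoferrin, stood at 23.7, 36.6, 0 and 29.5 CPM in Pracinostat replicates 1 to 4, against 24.7, 2 and 0 CPM in DMSO replicates 1 to 3. Here again the same 4 libraries were high.

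S100a8 and S100a9 encode the subunits of calprotectin, the most abundant cytosolic protein of neutrophils, which monocytes also make, and the genes are neighbours. S100a9 stood at 49.4, 38, 0 and 22.5 CPM in Pracinostat replicates 1 to 4, against 45.8, 8.88 and 0.515 CPM in DMSO replicates 1 to 3. S100a8 stood at 14.4, 13.6, 0.463 and 5.41 CPM in Pracinostat replicates 1 to 4, against 13.4, 1.92 and 1.48 CPM in DMSO replicates 1 to 3. Both genes put Pracinostat replicate 1 highest, Pracinostat replicate 3 lowest and DMSO replicates 2 and 3 next above it. S100a8 differed 31.1-fold between its highest and lowest libraries.

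Among the surface molecules of mature neutrophils, Cxcr2, the receptor for CXCL1 and CXCL2, stood at 44.9, 19.7, 0.727 and 9.19 CPM in Pracinostat replicates 1 to 4, against 26.6, 3.92 and 3.29 CPM in DMSO replicates 1 to 3. Its order of libraries was the same as that of S100a9, with a 61.8-fold range. Retnlg, a resistin-like secreted protein of mouse neutrophils, stood at 7.7, 1.28, 0 and 1.35 CPM in Pracinostat replicates 1 to 4, against 6.45, 0.16 and 0 CPM in DMSO replicates 1 to 3. The highest library of each group, Pracinostat replicate 1 and DMSO replicate 1, stood well above the rest for Retnlg.

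Ly6g, the antigen used to stain mouse neutrophils, was close to undetected. It had 8 and 14 counts in Pracinostat replicates 1 and 2, or 0.545 and 0.852 CPM, and 0 counts in Pracinostat replicates 3 and 4 and in the 3 DMSO libraries. It belongs to the Ly6 family of similar genes, among which reads can be split, and it did not pass the filter on low counts.

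Mmp8, the neutrophil collagenase, departed from the shared pattern. It stood at 19.8, 11.4, 5.03 and 13.3 CPM in Pracinostat replicates 1 to 4, against 40.7, 25 and 2.83 CPM in DMSO replicates 1 to 3. DMSO replicate 2 was thus the second highest library for Mmp8, although it ranked 5 of 7 for S100a9, Cxcr2, Ngp and Ltf. Mmp8 was also detected with 76 counts in Pracinostat replicate 3, where 6 of the 10 transcripts had no count.

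Csf3r, the G-CSF receptor, is carried by neutrophils and their precursors and is also expressed by monocytes and microglia. It stood at 320, 377, 360 and 411 CPM in Pracinostat replicates 1 to 4, against 359, 349 and 271 CPM in DMSO replicates 1 to 3. Pracinostat replicate 3, with the fewest counts of the other transcripts, ranked 3 of 7 for Csf3r. Its standard deviation over the 7 libraries was 0.19 in log2 CPM, smaller than the median of 0.53 over all genes tested, whereas Ngp had 4.36, Ltf 3.63 and S100a9 3.35.

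Because Csf3r is abundant, it sets most of the summed signal. It made up 62% of the counts of the 10 genes in Pracinostat replicate 1, 62.6% in Pracinostat replicate 2, 98.3% in Pracinostat replicate 3 and 75.9% in Pracinostat replicate 4. In DMSO replicates 1 to 3 it made up 61.6%, 89.2% and 97.1%. The 10 genes together held 0.0501 ± 0.00921% of library counts with Pracinostat (SD, n = 4) and 0.0421 ± 0.0155% with DMSO (SD, n = 3). A sum over all 10 is thus set mainly by Csf3r and says little of the other 9.

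Without Csf3r, the 9 genes held 0.0188, 0.0219, 0.000636 and 0.0133% of counts in Pracinostat replicates 1 to 4, against 0.0224, 0.00437 and 0.000795% in DMSO replicates 1 to 3. In counts, that is 2877, 3705, 94 and 1348 with Pracinostat and 2844, 526 and 126 with DMSO. The lowest libraries of the 2 groups were close to each other, and so were the highest. The means were 0.0136 ± 0.00937% with Pracinostat (SD, n = 4) and 0.00918 ± 0.0116% with DMSO (SD, n = 3), a difference smaller than either SD. The log2 ratio of these means, 0.57, depended on single libraries: it was 2.4 without DMSO replicate 1 and 0.97 without Pracinostat replicate 3, but 0.028 once DMSO replicate 3 was left out. In bulk RNA, fewer neutrophils and less of these RNAs per cell cannot be told apart.

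**Figure D2:**
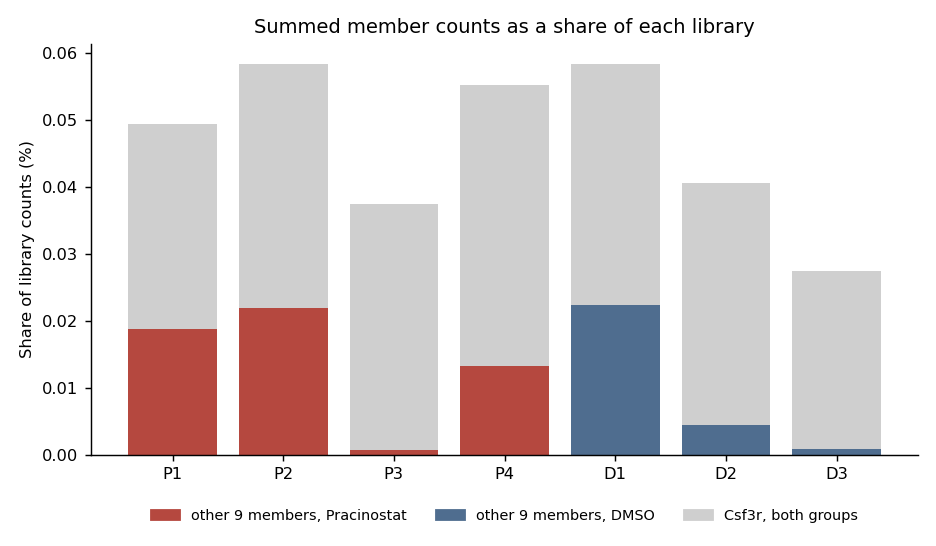
Summed counts of the 10 genes as a percentage of all counts in each library (P1 to P4, Pracinostat; D1 to D3, DMSO), with Csf3r in grey on top of the other 9 genes in colour. The coloured part runs from 0.000636 to 0.0219% with Pracinostat and from 0.000795 to 0.0224% with DMSO, while the grey part is 0.0266 to 0.0419% throughout.

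The comparison of Pracinostat with DMSO was made by edgeR's quasi-likelihood test over 15822 genes, of which 9 of the 10 transcripts passed the filter on low counts. Of these 9, 0 passed an adjusted p of 0.05, against 0% of all genes tested. None of the 9 had an unadjusted p under 0.05, against 4.18% of all genes, and limma-voom and DESeq2, which called 0.16% of its genes, also called 0 of them. Positive fold changes were found for 8 of 9, with a median of 0.59, against 52.3% of all genes and a median of 0.02. The 8 come from the same libraries, in which the genes varied together, and are not separate observations. Leaving out 1 library at a time gave 6 to 8 of 9 positive. Without Pracinostat replicate 1 and DMSO replicate 2, both rich in collagen transcripts, 4 of 9 were positive. That last alternative was chosen after seeing the data.

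The largest positive fold changes among the 9 were those of Ltf, Ngp and Camp. They did not extend to Lcn2, also of specific granules, at 0.49. Ltf averaged 22.5 ± 15.9 CPM with Pracinostat (SD, n = 4) and 8.9 ± 13.7 CPM with DMSO (SD, n = 3), a log2 fold change of 1.34 ± 2.09 (SE). Its 95% interval ran from -3.94 to 6.62. Ngp averaged 43.6 ± 41.8 CPM with Pracinostat (SD, n = 4) and 20 ± 34.4 CPM with DMSO (SD, n = 3), with a log2 fold change of 1.13 ± 2.40 and an interval from -4.96 to 7.22. Camp was at 0.81 ± 1.92. For each of the 3 the group SD was as large as the difference between the means or larger.

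S100a8 was at 0.59 ± 1.09, S100a9 at 0.58 ± 1.86, Cxcr2 at 0.73 ± 1.36 and Retnlg at 0.23 ± 1.76 on the log2 scale (Pracinostat minus DMSO, ± SE). Mmp8 was the only one of the 9 with a negative fold change, at -0.88 ± 0.77, with 12.4 ± 6.07 CPM with Pracinostat (SD, n = 4) and 22.8 ± 19 CPM with DMSO (SD, n = 3). For all 9 the edgeR adjusted p was 1. For the genes other than Csf3r the intervals were wide enough to hold several-fold changes in at least 1 direction. A difference of that size between treatments was thus not excluded in that direction.

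Csf3r gave the one narrow interval. It averaged 367 ± 38 CPM with Pracinostat (SD, n = 4) and 326 ± 47.9 CPM with DMSO (SD, n = 3), a log2 fold change of 0.17 ± 0.16 (SE). The interval from -0.17 to 0.51 contains no 2-fold change in either direction.

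**Figure D3:**
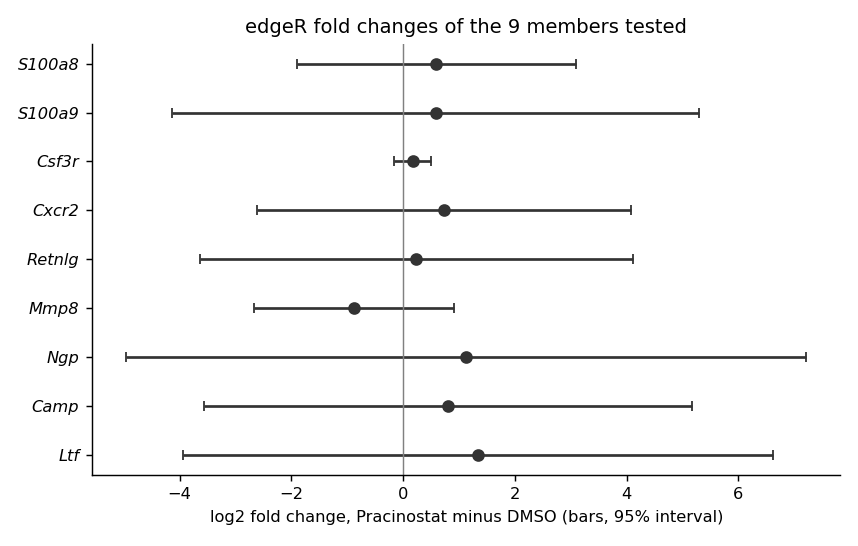
edgeR log2 fold changes (Pracinostat minus DMSO) of the 9 transcripts that passed the filter, with points for estimates and bars for 95% intervals. All intervals cross 0; that of Csf3r runs from -0.17 to 0.51 and that of Ngp from -4.96 to 7.22.

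The size of single folds turned on single libraries, above all DMSO replicate 1. Without DMSO replicate 1, Ngp was at 8.53, Camp at 8.68, Retnlg at 4.92 and Ltf at 4.53 on the log2 scale, and S100a8 was at 2.31, S100a9 at 2.56 and Cxcr2 at 2.37. The first 4 values set Pracinostat against DMSO libraries with few or no counts. They depend on the fit's own default prior count, not the 2 used for log2 CPM. None of the 7 passed the test in that fit (edgeR adjusted p 0.944 or more). Over all alternatives the smallest edgeR adjusted p of the 7 was 0.753, for S100a8 without a low-count filter. It was 0.844 for Camp and 0.944 for Ngp. Without Pracinostat replicate 1, Cxcr2 was at -0.18 and Retnlg at -1.31, and without Pracinostat replicate 2, Ngp was at 0.31. Over the fits that left out 1 library, S100a8 ran from 0.14 to 2.31, S100a9 from 0.0044 to 2.56 and Mmp8 from -1.41 to -0.16. The method mattered as well: limma-voom put Ngp at 3.43, Camp at 2.77, Ltf at 2.32, Retnlg at 1.34, S100a9 at 0.12, Cxcr2 at 0.41 and Mmp8 at -0.25.

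The make-up of the signal also differed between libraries. Ngp, Camp and Ltf together held 30.3% of the counts of the 9 genes in Pracinostat replicate 1 (95% Wilson interval 28.6 to 32), 62.4% in Pracinostat replicate 2 (60.8 to 63.9) and 60.2% in Pracinostat replicate 4 (57.6 to 62.8). In DMSO replicate 1 they held 40.5% (38.7 to 42.3). These intervals cover counting error only, and among these 4 libraries only those of Pracinostat replicates 2 and 4 overlapped.

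In the libraries with little signal, Ngp, Camp and Ltf were nearly missing. They held 0 of 94 counts in Pracinostat replicate 3, which allows up to 3.93% by the Wilson interval. They held 5.32% in DMSO replicate 2 and 0 of 126 counts in DMSO replicate 3, which allows up to 2.96%. There Mmp8 took 80.9% of the 94 counts in Pracinostat replicate 3, 59.3% of the 526 in DMSO replicate 2 and 34.9% of the 126 in DMSO replicate 3, while Cxcr2 took 40.5% in DMSO replicate 3. In Pracinostat replicates 1, 2 and 4 and DMSO replicate 1, Mmp8 took 5.05 to 18.2%.

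The part of calprotectin varied less, except in Pracinostat replicate 3. S100a8 and S100a9 held 32.5, 22.9 and 21.4% of the counts in Pracinostat replicates 1, 2 and 4, against 26.5, 25.7 and 24.6% in DMSO replicates 1 to 3, and 7.45% in Pracinostat replicate 3. Cxcr2, a gene of late maturation, held 22.9% in Pracinostat replicate 1 and 8.74 and 7.05% in Pracinostat replicates 2 and 4, against 11.9% in DMSO replicate 1. The Pracinostat libraries thus differed among themselves in the balance of Ngp, Camp and Ltf against Cxcr2.

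**Figure D4:**
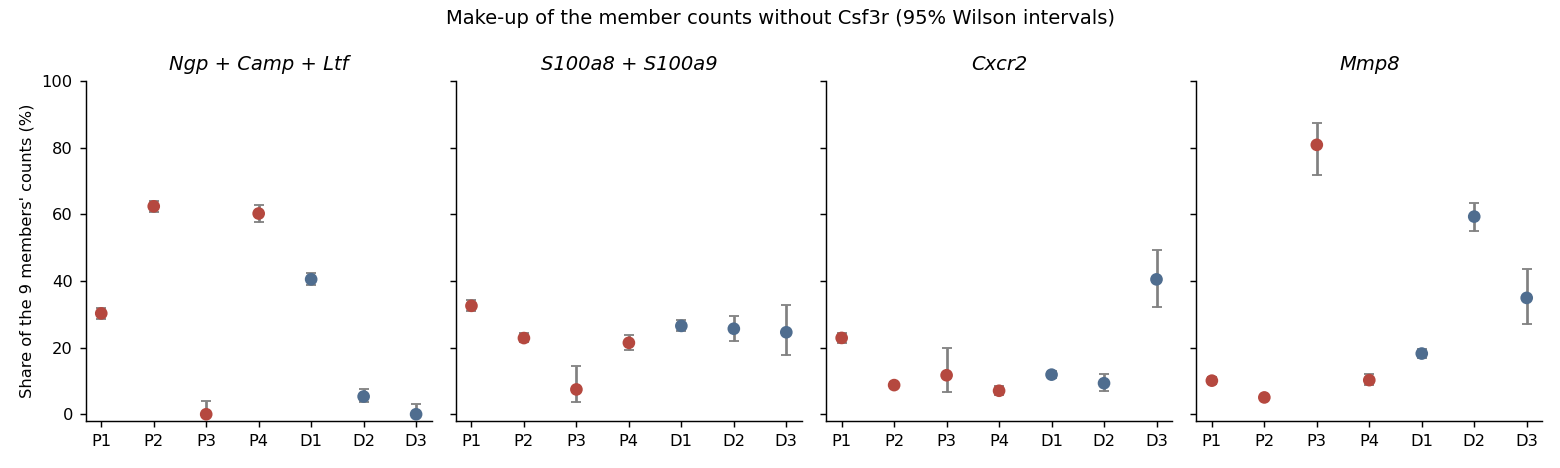
Share of the summed counts of the 9 genes other than Csf3r that came from Ngp, Camp and Ltf, from S100a8 and S100a9, from Cxcr2 and from Mmp8, by library (P1 to P4, Pracinostat; D1 to D3, DMSO), with 95% Wilson intervals. Ngp, Camp and Ltf hold 30.3 to 62.4% in P1, P2, P4 and D1 and 0 to 5.32% in P3, D2 and D3, where Mmp8 holds 34.9 to 80.9%.

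Other neutrophil genes were read from lists of the same lineage. Beside this and each later list, 52.3% of all genes tested were positive, with a median of 0.02, and 0% were called. Of 10 further genes of specific and gelatinase granules, 8 were tested, 3 were positive and 5 negative with a median of -0.52, and 0 were called. Lcn2, the siderophore-binding lipocalin of specific granules, stood at 21.1, 18.7, 0.0661 and 13.6 CPM in Pracinostat replicates 1 to 4, against 24.7, 2.24 and 1.61 CPM in DMSO replicates 1 to 3. The same 4 libraries were high as for S100a8 and S100a9.

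Mmp9, the gelatinase that macrophages also secrete, did not. It stood at 18.2, 15.7, 0 and 35 CPM in Pracinostat replicates 1 to 4, against 39.5, 52.1 and 115.8 CPM in DMSO replicates 1 to 3. The highest library was DMSO replicate 3, which had no count of Ngp, Camp or Ltf. Every Pracinostat library was below every DMSO library, as in 2.59% of all genes tested, and the log2 fold change of -2.01 ± 1.32 did not pass (edgeR adjusted p = 1). Chil3, a chitinase-like protein of neutrophils and macrophages, was at -1.27 ± 0.68 and was detected in every library.

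Of 14 mature neutrophil genes in the table, 11 were tested, with 8 positive, 3 negative, a median of 0.15 and 0 called. Hdc, which makes histamine, stood at 45.8, 14, 1.79 and 10.4 CPM in Pracinostat replicates 1 to 4, against 21.8, 6.64 and 2 CPM in DMSO replicates 1 to 3. Il1r2, the decoy receptor for interleukin-1, stood at 24.9, 34.3, 0.529 and 12.4 CPM in Pracinostat replicates 1 to 4, against 16.6, 3.76 and 11.3 CPM in DMSO replicates 1 to 3. Of the 11 genes tested, 7 had their lowest value in Pracinostat replicate 3, 3 in DMSO replicate 3 and 1 in DMSO replicate 2. The 7 included Hdc, Il1r2 and Trem1, an activating receptor of neutrophils and monocytes, which stood at 8 CPM in Pracinostat replicate 3 against 34.1 to 102.5 CPM in the other Pracinostat libraries and 27.6 to 62.7 CPM with DMSO. Lrg1, a secreted glycoprotein, differed from these, with 16.9 CPM in Pracinostat replicate 3, its highest Pracinostat value, and its lowest value, 6.63 CPM, in DMSO replicate 3.

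Genes of the earliest stage were almost silent. The 6 primary-granule genes had 19, 18, 0 and 113 counts in all in Pracinostat replicates 1 to 4, against 22, 0 and 25 counts in DMSO replicates 1 to 3, and 1 of the 6, Prtn3, could be tested (log2 fold change -0.02 ± 1.88). Of the factors of granule formation, Cebpe, which encodes C/EBP epsilon, had 18 counts over the 7 libraries and Gfi1 had 2. The factors that macrophages share were abundant and level, with Cebpa at -0.02 ± 0.18, Cebpb at 0.10 ± 0.20 and Spi1, which encodes PU.1, at 0.05 ± 0.16. Of 6 such factors 4 were tested and 0 called.

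Likeness to the 10 genes was measured as the root mean square difference between a gene's centred log2 CPM and the mean centred profile of the 9 transcripts tested, over the 7 libraries. The mean profile was 1.97, 1.68, -3.20 and 1.26 in Pracinostat replicates 1 to 4, and 2.12, -1.13 and -2.71 in DMSO replicates 1 to 3. Of 12648 named genes, the nearest were Plekhh1 (0.692), Mgst2 (0.695), Lcn2 (0.699), Arg2 (0.751), Catip (0.788), Mapk13 (0.8285), Hdc (0.83) and Hr (0.847), with a median of 2.18 over all genes tested. Lcn2 and Hdc were on the neutrophil lists, and Arg2, the mitochondrial arginase, stood at 19.5, 10.05, 0.727 and 5.03 CPM in Pracinostat replicates 1 to 4, against 6.21, 1.84 and 0.515 CPM in DMSO replicates 1 to 3. Plekhh1, Mgst2, Catip, Mapk13 and Hr all stayed under 5 CPM in every library. Of the 9 transcripts that form the profile, S100a8 (0.642) and Retnlg (0.724) were nearest to it, and Csf3r (2.05) and Ngp (2.04) farthest. The measure also grows with the size of a gene's swings. Centred Ngp followed the profile with wider swings, at 2.66, 4.37, -5.08 and 3.17 in Pracinostat replicates 1 to 4. In DMSO replicates 1 to 3 it was at 3.62, -3.66 and -5.08. Csf3r was level, between -0.355 and 0.245.

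Monocyte and dendritic cell transcripts moved in part with the neutrophil signal. All 9 monocyte markers were tested, 2 were positive, 7 negative and 0 called, with a median of -0.41. Of the 9, only F13a1 had an unadjusted edgeR p under 0.05 (0.0488, log2 fold change -0.89), against 4.18% of all genes tested. Ccr2, the receptor that brings monocytes into tissue, stood at 45.5, 42.9, 12 and 34.6 CPM in Pracinostat replicates 1 to 4, against 66.5, 56.3 and 15 CPM in DMSO replicates 1 to 3. It was lowest in Pracinostat replicate 3 and DMSO replicate 3, as was Plac8, another gene of monocytes. The list as a whole held 0.379 to 1.04% of counts with Pracinostat and 0.447 to 0.674% with DMSO, the highest share in Pracinostat replicate 3. There Fn1, the fibronectin gene, stood at 9829 CPM and held 148640 of the list's 153571 counts. That share thus says little of the other markers. Ccr2, Plac8, F13a1, Vcan and Treml4 were at their lowest of all libraries in Pracinostat replicate 3, while Ly6c2, Ms4a4c and Ace were not. Ly6c2 had no count in Pracinostat replicate 2 and was present in the other libraries.

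The 6 dendritic cell markers held 0.00233 to 0.0128% of counts with Pracinostat and 0.00324 to 0.00957% with DMSO, and the lowest library of each group was again replicate 3. All 6 were tested, 4 were positive with a list median of 0.31, and 0 were called. Cd209a had no count in Pracinostat replicate 3 and Clec9a none in DMSO replicate 3. The part of monocytes and dendritic cells in the neutrophil pattern was not tested.

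Microglial transcripts did not drop with the neutrophil genes. The 9 markers in the table held 0.41, 0.469, 0.723 and 0.442% of counts in Pracinostat replicates 1 to 4, against 0.472, 0.375 and 0.47% in DMSO replicates 1 to 3, and none was at 0. The highest share was that of Pracinostat replicate 3. Of the 9, 8 were positive with a median of 0.24 and 0 were called. Over all genes tested, 52.3% were positive with a median of 0.02 and 0% were called. The 8 macrophage markers held 1.43 to 2.34% with Pracinostat and 1.62 to 2.14% with DMSO, with 6 of 8 positive, a median of 0.06 and 0 called.

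**Figure D5:**
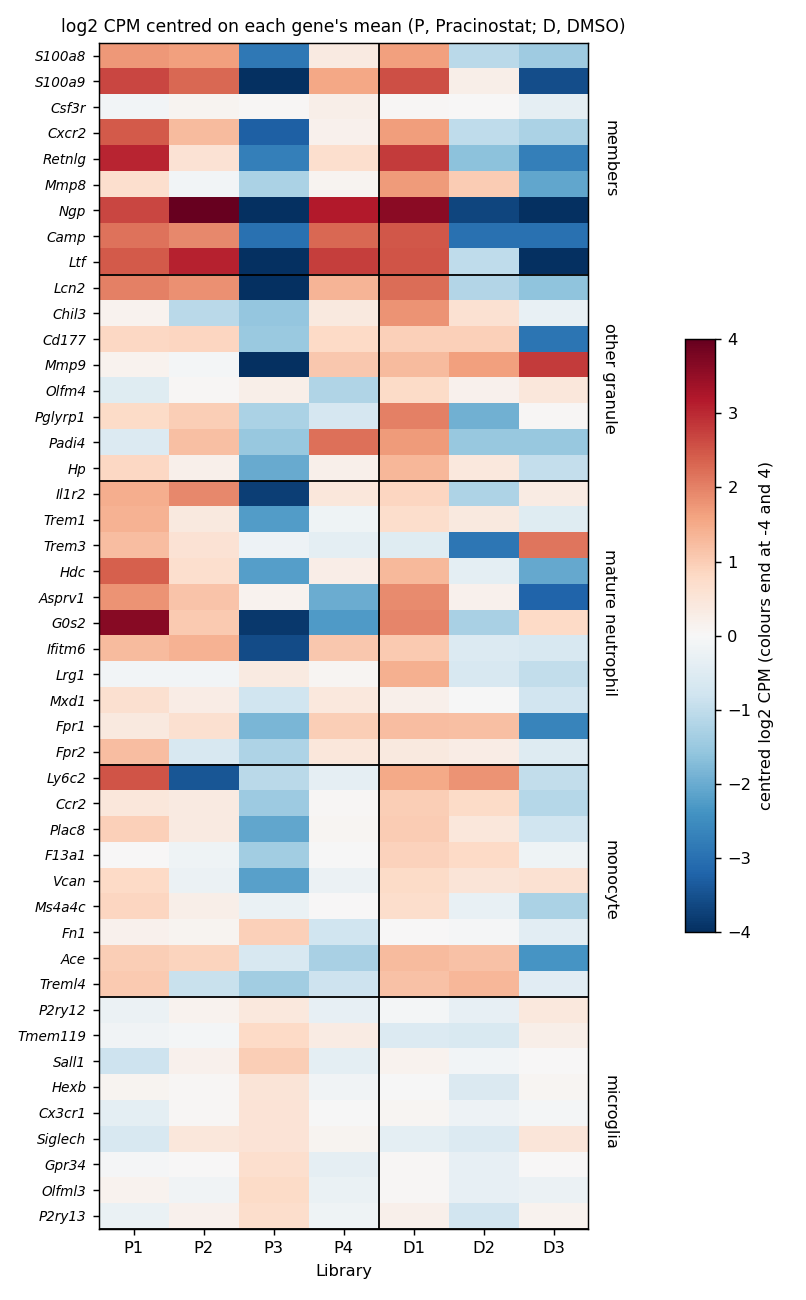
log2 CPM of each tested gene, centred on its mean over the 7 libraries, for the neutrophil transcripts, other granule genes, mature neutrophil genes, monocyte markers and microglia markers (rows) in P1 to P4 (Pracinostat) and D1 to D3 (DMSO); colours end at -4 and 4. P3 and D3 are low for most neutrophil genes, Csf3r is level, and Mmp9 is highest in D3.

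The ligands that draw or raise neutrophils differed among themselves in their order of libraries. Csf3, which encodes G-CSF, had 4 counts each in Pracinostat replicates 1 and 4 and 0 in the other libraries. Cxcl1, a ligand of CXCR2, stood at 122.8, 119 and 27.4 CPM in Pracinostat replicates 1, 2 and 4 and 15.9 CPM in Pracinostat replicate 3, against 19.8, 35.8 and 61.1 CPM in DMSO replicates 1 to 3. DMSO replicate 1, rich in Cxcr2, had less Cxcl1 than DMSO replicate 3, which was poor in it. Cxcl3, another ligand of CXCR2, was nearer to the neutrophil genes, at 38.6, 6.03, 0.463 and 2.51 CPM in Pracinostat replicates 1 to 4, against 21, 11 and 0 CPM in DMSO replicates 1 to 3. Of the 4 ligands with a row in the table, 3 were tested, all 3 positive and 0 called: Cxcl1 was at 0.87 ± 0.87, Cxcl2 at 0.12 ± 0.51 and Cxcl3 at 0.16 ± 1.88 on the log2 scale.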

How the data were processed

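The authors deposited one table of expected counts per gene symbol, not normalized and stored as whole numbers. Per the submitters' processing notes, the tools included STAR and RSEM, with Trim Galore, FastQC, MultiQC and DESeq2, on the build GRCm39. Versions, annotation and strand setting: not given in the sources used here. Per the labels' protocols, libraries were made with a stranded total RNA kit from 1 ng of RNA. The labels give a dose of 30 mg/kg and, for the prepared drug, also 3 mg/kg.

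Counts were tested with edgeR 4.0.16 (R 4.3.3), with a low-count filter (filterByExpr, minimum count 10), TMM library scaling, a robust quasi-likelihood fit, two-sided test, and Benjamini-Hochberg adjustment over 15822 genes. Standard errors are the fold change divided by the square root of F. Log2 CPM used a prior count of 2. DESeq2 1.42.0 and limma-voom 3.58.1, other scalings and filters, a replicate block and leaving out each library were alternatives. The fit was tested on simulated data. No library pair agreed within sampling noise (lowest chi-square 30.04 per degree of freedom). The 10 genes and all lists were chosen with earlier results of these data known. All 10 genes were named, plus the 8 genes nearest to their profile and listed markers. Mmp9 was described after its values were seen. A monocyte marker is not reported here and was left out of its list.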

Additional observations from a re-analysis of the deposited data

Results flagged for a closer look

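In the group of 4 Pracinostat libraries, Dixon's test for an outlying library at its 95% limit was applied to 24 values, and 2 passed that limit. Chance flags about 1 in 20 such groups, and the 3 DMSO libraries were too few to screen. The 6 primary-granule genes held 0.00111% of counts in Pracinostat replicate 4, while Pracinostat replicates 1 to 3 held at most 0.000124% and the DMSO libraries at most 0.000173%. That library had 55 counts of Mpo, which encodes myeloperoxidase, and 40 of Elane, neutrophil elastase, whereas its Ngp and Ltf lay between those of Pracinostat replicates 1 and 2. The fibroblast markers held 0.0669% of counts in Pracinostat replicate 1 and 0.002 to 0.00412% in Pracinostat replicates 2 to 4. DMSO replicate 2 held 0.11% and the other DMSO libraries 0.00192 to 0.00619%. Of these 2 collagen-rich libraries, Pracinostat replicate 1 was high in neutrophil transcripts and DMSO replicate 2 was not. Of the 10 neutrophil transcripts taken singly, none had such a library within the Pracinostat group.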

How the results depend on the processing

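The number of neutrophil transcripts called was 0 in the 15 alternatives run. Of 9 tested, 8 were positive, and 6 to 8 when 1 library was left out. That number was 4 without both collagen-rich libraries, an alternative chosen after seeing the data, where S100a8 was at -0.19, S100a9 at -0.19, Cxcr2 at -0.58 and Retnlg at -1.86. Leaving out 1 library moved Retnlg between -1.31 and 4.92 and Cxcr2 between -0.18 and 2.37. Over all genes the count called was 63 without a low-count filter, 27 with DESeq2, 10 with the replicate number as a block and 0 to 3 when 1 library was left out, the 3 without DMSO replicate 3, and no neutrophil transcript was among them. Equal replicate numbers are not said to mark paired samples, and deviations of same-numbered libraries correlated at 0.0445, -0.0352 and 0.0728. In the block 8 of 9 were positive and 0 called, with Ngp at 2.77, Camp at 2.42, Retnlg at 1.36 and Mmp8 at -0.50. The log2 ratio of the summed share of the 10 genes, 0.25, was 0.28 on TMM-scaled CPM, 0.23 without S100a8 and S100a9 and 0.57 without Csf3r, the last chosen after seeing the data, and ran from 0.019 to 0.56 when 1 library was left out. With 94 to 526 counts of the 9 genes in Pracinostat replicate 3 and DMSO replicates 2 and 3, single genes there rest on few reads.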

Other observations

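Other blood-borne cells left few transcripts. Of 9 eosinophil, basophil and mast cell markers, Ccr3 and Gata2 were in the table used here, with 6 to 107 counts in all in each Pracinostat library and 65 to 102 in each DMSO library. Gata2, also a factor of blood progenitors, stood at 2.66, 6.51, 0.132 and 1.16 CPM in Pracinostat replicates 1 to 4, against 8.02, 5.2 and 3.99 CPM in DMSO replicates 1 to 3, and as the 1 gene tested had a log2 fold change of -1.12 and was not called. Of 8 red cell and platelet markers in the table, 3 were tested, all 3 negative with a median of -1.35 and 0 called. They held 0.000487 to 0.00404% of counts with Pracinostat and 0.00296 to 0.00681% with DMSO, mostly Pf4, platelet factor 4, which some macrophages also express. Globin counts were 0 to 19 per gene in Pracinostat libraries and 0 to 23 in DMSO libraries. All 5 fibroblast genes tested were negative, with a median of -0.997 and 0 called.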
